A study of Mus musculus with 31 samples.

Results

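Col4a5 and Col4a6 encode 2 chains of type IV collagen and lie next to each other on the mouse X chromosome, transcribed in opposite directions. They are 2 of the 24470 gene symbols in the exon count table and 2 of its 1058 X-linked symbols. Both were picked by name with their total counts, allele reads and classified chromatin sites in these data already known. Those values are therefore given as a description, without a test, and tests are kept for other genes.

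RNA-seq was run on 2 libraries each of 3 groups of cultured female dermal fibroblasts from a CAST/Ei x 129/Sv/Jae hybrid. Line 1 (XaWT XiΔXist) and line 2 (XaWT XiΔXist #2, a further cell line) carried a deletion of Xist on the inactive X, made after inactivation was complete according to the labels of the chromatin samples, and an intact active X. Wild-type (WT) cells had both copies of Xist. All 3 groups share the hybrid background and untreated culture, and the sources used here do not say whether either deleted line is a single clone. The study also classified sites of open chromatin and of BRG1 binding on the X, and those lists enter here through the sites inside the 2 genes.

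Type IV collagen forms the sheet-like network of basement membranes. Its chains fold into trimers: the common network of most tissues is built from the Col4a1 and Col4a2 chains, whereas the Col4a5 chain joins either the Col4a3 and Col4a4 chains, as in the kidney filter, or the Col4a6 chain, as in skin and smooth muscle. The genes sit in head-to-head pairs that share a promoter region. In humans, loss of COL4A5 causes X-linked Alport syndrome. In female cells 1 X is silenced, with Xist RNA coating it, and BRG1 is the ATPase of the SWI/SNF chromatin remodeler.

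Col4a5 lies on the plus strand of mm10 at chrX:141475419-141689235 and Col4a6 on the minus strand at chrX:141165403-141474076. Their starts are 1343 bases apart and together they span 523.8 kb. Each is counted as a single RefSeq transcript, with exons of 6490 bases in Col4a5 and 6647 bases in Col4a6. RefSeq (GRCm38.p6) also places the long noncoding RNA Gm39539 and the pseudogene Gm15078 inside Col4a6, and the sources used here do not say whether exons were counted by strand.

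The 250 bases upstream of the start of each counted transcript are shown because the promoters face each other across one short stretch. RefSeq has Col4a5 from base 141475370 and Col4a6 up to base 141474095. The last bases of each window therefore lie inside the RefSeq span of the gene. They are from RefSeq (GRCm38.p6), written 5′ to 3′ on the strand of each gene, at chrX:141475169-141475418 for Col4a5 and chrX:141474077-141474326 for Col4a6. Capitals mark matches, on either strand, to a GC box (GGGCGG) or a CCAAT box (CCAAT).
Col4a5: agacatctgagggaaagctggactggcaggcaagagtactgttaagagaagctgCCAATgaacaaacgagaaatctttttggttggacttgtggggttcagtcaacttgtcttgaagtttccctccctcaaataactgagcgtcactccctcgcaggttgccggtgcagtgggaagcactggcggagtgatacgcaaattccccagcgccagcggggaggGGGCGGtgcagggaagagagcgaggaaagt
Col4a6: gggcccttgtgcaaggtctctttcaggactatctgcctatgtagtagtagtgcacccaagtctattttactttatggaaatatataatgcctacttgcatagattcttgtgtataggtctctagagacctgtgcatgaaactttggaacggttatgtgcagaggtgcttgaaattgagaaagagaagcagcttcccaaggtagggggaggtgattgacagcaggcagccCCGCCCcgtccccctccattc
The Col4a5 window held 10 CpG dinucleotides and 54% G and C, against 3 CpG and 47.6% for Col4a6 and medians of 6 CpG and 52.4% over 32851 mouse promoter windows of the same length. A GC box was found in both windows and in 32.7% of all windows. That of Col4a5 lay inside the RefSeq span of the gene and that of Col4a6 across its edge. A CCAAT box stood only in the Col4a5 window of the pair and in 33.8% of all windows, and a TATA box (TATAAA), present in 12.4% of all windows, in neither. None of the searched motifs overlapped another here. These matches describe letters, not binding.

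Xist was checked first. It had 0.946 and 0.273 CPM (the usual depth-scaled count unit, with TMM-scaled library sizes) in the line 1 libraries, 0.969 and 0.282 CPM in the line 2 libraries, and 632.9 and 428.6 CPM in the WT libraries. Both deleted lines were near 0 and WT was high, as the labels say. The log2 fold change was -9.85 (SE 0.47, edgeR adjusted p = 0.000276) in line 1 and -9.88 (SE 0.46, edgeR adjusted p = 0.00178) in line 2. A library held between 3808047 and 7063169 exon counts. Of 12 fibroblast markers, none was at 0 in any library, and their summed level ranged over 4953 to 7772 CPM in line 1, 6361 to 7876 CPM in line 2 and 6189 to 7498 CPM in WT. Lum had 1 count in the second line 2 library. In line 1 Dcn alone was called, higher (log2 fold change 2.19, edgeR adjusted p = 0.0215), and in line 2 none. In line 2 minus line 1, Dcn was called lower (-3.06) and Fbn1 higher (1.11). Over all genes 14.3%, 3.58% and 12.6% were called in these 3 comparisons.

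Col4a6 was lower in both deleted lines. Its level was 44.1 and 36.1 CPM in line 1, 91.5 and 104.1 CPM in line 2, and 222.1 and 228.5 CPM in WT. Every library of line 1 lay below every library of line 2, and both lines lay below WT. The means were 40.1 ± 5.63 CPM in line 1, 97.8 ± 8.91 CPM in line 2 and 225.3 ± 4.55 CPM in WT (SD, n = 2 each). Line 1 thus held 17.8% of the WT level and line 2 held 43.4%. The fitted log2 fold change was -2.50 (SE 0.14) in line 1 and -1.20 (SE 0.14) in line 2, and the difference of line 2 minus line 1 was 1.30 (SE 0.14).

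Col4a5 was lower in line 1 and near WT in line 2. It had 175.2 and 97.7 CPM in line 1, 325.7 and 305.5 CPM in line 2, and 350.2 and 333.2 CPM in WT. Both line 1 libraries lay far below all others, while those of line 2 fell just under the WT range. Means were 136 ± 54.8 CPM in line 1, 316 ± 14.3 CPM in line 2 and 342 ± 12.02 CPM in WT (SD, n = 2 each). Line 1 held 39.9% of the WT level and line 2 held 92.4%. The log2 fold change was -1.33 (SE 0.26) in line 1 and -0.11 (SE 0.26) in line 2, the last smaller than its SE, and line 2 minus line 1 was 1.22 (SE 0.26).

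The 2 line 1 libraries did not give the same size of drop for Col4a5. Set against the WT library of the same number, Col4a5 was at 50.0% in the first and 29.3% in the second. Its log2 fold change in line 1 was -1.81 without the first line 1 library and -0.96 without the second. Col4a6 was steadier, at 19.8% and 15.8% of WT in line 1 and at 41.2% and 45.5% of WT in line 2. Col4a1, which was not chosen for its values, was also lower in the second line 1 library, at 88.3% and 58.3% of WT in the 2 libraries.

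**Figure D1:**
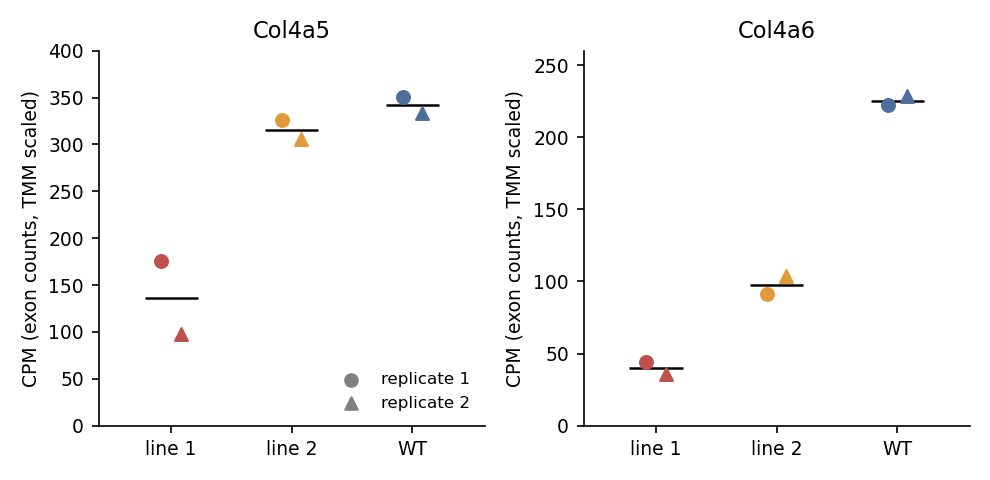
Level of Col4a5 (left) and Col4a6 (right) in CPM in every RNA library, by group. Circles are replicate 1, triangles replicate 2 and bars group means. Col4a6 lies at 36.1 to 44.1 CPM in line 1 and 91.5 to 104.1 CPM in line 2, below 222.1 CPM in WT, whereas Col4a5 in line 2 lies at 305.5 CPM or above.

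These folds stood against a wide background. Of 12910 genes tested, 14.3% were called in line 1 (edgeR adjusted p under 0.05), 7.55% lower and 6.75% higher. In line 2 3.58% were called, 1.85% lower and 1.73% higher. Between the lines 12.6% were called, 6.87% higher and 5.76% lower in line 2 minus line 1. These counts depended on the fit: the replicate block called 4183 genes in line 1, 1565 in line 2 and 3506 between the lines, against 1846, 462 and 1630 without it. Leaving out any 1 library of the comparison gave 23 to 52 in line 2, and leaving out the first or the second WT library gave 775 or 718 in line 1. By log2 fold change, Col4a6 ranked 14th from the lowest of 415 tested X-linked genes in line 1 and 19th in line 2. Col4a5 ranked 29th from the lowest in line 1 and 141st in line 2. The median log2 fold change of the X-linked genes other than Xist was 0.03 in line 1 and -0.02 in line 2.

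The summed marker levels of 3 other cell types were lower in line 1 together with the pair, and those of 2 were higher. Over all genes, edgeR called 6.75% higher and 7.55% lower in line 1, and 1.73% higher and 1.85% lower in line 2. Of 7 tested smooth muscle markers, 5 fell in line 1 and none was called in line 2 by edgeR or DESeq2 (2 had an unadjusted p under 0.05), and their summed level over 8 genes ranged over 398.3 to 443.8 CPM in line 1, 973.5 to 1064 CPM in line 2 and 974.3 to 995.9 CPM in WT. None of the 8 was at 0, but Myh11 had 1 to 4.5 counts in any library. The 9 keratinocyte and epithelial markers summed to 2.16 and 1.84 CPM in line 1, 23.1 and 26.7 CPM in line 2, and 70.4 and 95.6 CPM in WT, the order of Col4a6. Of these, 3 were tested, and all 3 fell in line 1 and 1 in line 2, while Krt5 and Krt14 had at most 0.5 counts in any library. Endothelial markers summed to 2.97 and 3.55 CPM in line 1, 6.54 and 5.92 CPM in line 2, and 12 and 10.4 CPM in WT. Of 3 tested endothelial markers, 2 fell in each line. Melanocyte and Schwann cell markers summed to 66.8 and 64.2 CPM in line 1, 19.4 and 15.2 CPM in line 2, and 29.7 and 21.0 CPM in WT, and leukocyte markers to 29.2 and 28.4 CPM in line 1, 25.9 and 29.5 CPM in line 2, and 18.2 and 18.1 CPM in WT. In each of these last lists 1 tested marker rose and 1 fell in line 1, Mitf and Ngfr in the first and Cd14 and Lyz2 in the second. Mitf alone made up most of the melanocyte and Schwann sum in line 1, with 55.4 and 54.5 CPM, against 11.6 and 9.36 CPM in WT. The median log2 fold change of the 4 tested markers of that list was -0.06 in line 1, so the list as a whole did not rise. The part of the smooth muscle, endothelial, melanocyte and leukocyte markers in these results was not tested. In bulk RNA, fewer cells of a type and less RNA per cell cannot be told apart.

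Per length of exon, Col4a6 was lower relative to Col4a5 in both deleted lines than in WT. Col4a6 over Col4a5, as a ratio of counts per kb within a library, was 0.246 and 0.361 in line 1, 0.274 and 0.333 in line 2, and 0.619 and 0.670 in WT. Both lines lay below WT with no overlap and overlapped each other. The mean ratio was 0.303 ± 0.081 in line 1, 0.303 ± 0.041 in line 2 and 0.644 ± 0.036 in WT (SD, n = 2 each). The ratio of the 2 lines did not differ beyond its spread, while the levels of both genes were lower in line 1 than in line 2. Both lines are set against the same WT libraries, so these are not independent observations of WT.

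Compared per length, Col4a5 and Col4a6 were minor chains in all 3 groups. Col4a6 made up 1.93% and 2.92% of the summed type IV chain level (CPM per kb) in line 1, 3.27% and 4.48% in line 2, and 7.68% and 9.36% in WT. The share of Col4a5 was 7.87% and 8.10% in line 1, 11.9% and 13.5% in line 2, and 12.4% and 14.0% in WT. The order by level was Col4a1, Col4a2, Col4a5, Col4a6 and then Col4a4 and Col4a3 in the group means. The same order held within every library. Across libraries, the ranges of Col4a1 and Col4a2 overlapped in each group, and those of Col4a4 and Col4a3 overlapped in line 1 and WT but not in line 2. Col4a4 and Col4a3 had few counts. Both had 3.5 counts in the second line 1 library, so their order there rests on exon length alone.

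**Figure D2:**
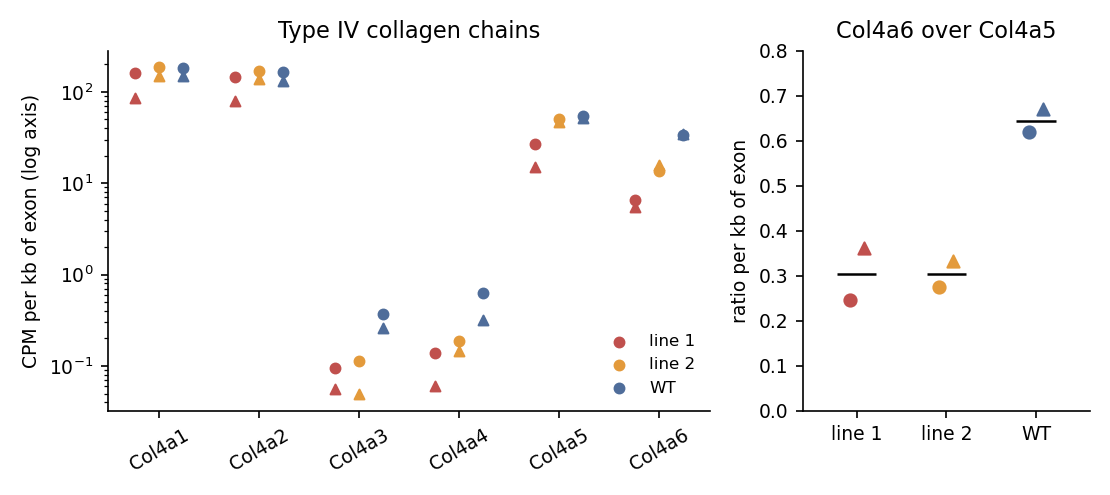
Left, level of each type IV collagen chain in CPM per kb of exon, on a log axis, in every library (circles replicate 1, triangles replicate 2). Right, ratio of Col4a6 to Col4a5 per kb by group, with bars for means; the line 1 and line 2 libraries lie at 0.246 to 0.361, below 0.619 and 0.670 in WT.

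Of the 4 other chains, 1 fell in line 1 by edgeR, where 7.55% of all genes were called lower. Col4a1 had 1071 and 572.5 CPM in line 1, 1234 and 991.3 CPM in line 2, and 1214 and 981.4 CPM in WT. The groups overlapped, with a log2 fold change of -0.42 (edgeR adjusted p = 0.471) in line 1 and 0.02 (edgeR adjusted p = 0.994) in line 2. Col4a2 was close to it, with -0.39 (edgeR adjusted p = 0.500) and 0.05 (edgeR adjusted p = 0.986). Without the first line 1 library, both passed the test in line 1 (Col4a1 -0.95 with edgeR adjusted p = 0.0393, Col4a2 -0.91 with 0.0402).

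Col4a4 and Col4a3, the partners of Col4a5 in the kidney trimer, were barely detected. Col4a4 had 1.08 and 0.478 CPM in line 1, 1.45 and 1.13 CPM in line 2, and 4.93 and 2.48 CPM in WT. It fell in line 1 (log2 fold change -2.27, SE 0.55, edgeR adjusted p = 0.0430), a call lost without the second line 1 library or without either WT library (adjusted p = 0.0717 to 0.206) and not made by DESeq2 (adjusted p = 0.142). In line 2 its log2 fold change was -1.53 (edgeR adjusted p = 0.218). Col4a3 had log2 fold changes of -2.03 (edgeR adjusted p = 0.0507) in line 1 and -2.04 (adjusted p = 0.112) in line 2. With replicate number as a replicate block, both genes passed in both lines (Col4a4 adjusted p = 0.0052 and 0.0329, Col4a3 0.00965 and 0.0198). In line 2, where edgeR called 3.58% of all genes, it called 0 of the 4 chains. DESeq2 also called 0, and 2 had an unadjusted p under 0.05. The median log2 fold change of the 4 was -1.23 in line 1 and -0.75 in line 2, against 0.005 over all genes in each.

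Some reads could be assigned to a parental X. The labels do not state whether the cas or the mus X is the inactive one that carries the Xist deletion, so the values are given by allele name. These allele reads, labelled cas and mus, made up 14.7% to 17.3% of the exon count for Col4a5 and 31.8% to 37.1% for Col4a6. Nearly all were cas in every group. For Col4a5 they numbered 95 and 122.5 cas against 0 and 1.5 mus in line 1, 217 and 345.5 cas against 3 and 2.5 mus in line 2, and 205.5 and 324.5 cas against 3 and 4.5 mus in WT. For Col4a6 they were 56 and 95 cas against 2.5 and 3 mus in line 1, 126 and 238.5 cas against 2 and 6.5 mus in line 2, and 271.5 and 441.5 cas against 8 and 18.5 mus in WT.

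The mus share of Col4a5 was 0% and 1.21% in line 1, 1.36% and 0.718% in line 2, and 1.44% and 1.37% in WT. Its 95% Wilson intervals reached up to 5.07% in line 1, 3.93% in line 2 and 4.14% in WT, so the groups could not be told apart at this depth. In the first line 1 library, the interval for 0 of 95 reads reached 3.89%. For Col4a6 the mus share was 4.27% and 3.06% in line 1, 1.56% and 2.65% in line 2, and 2.86% and 4.02% in WT, with overlapping intervals. The mean mus share of Col4a6 was 3.67 ± 0.857% in line 1, 2.11 ± 0.771% in line 2 and 3.44 ± 0.82% in WT (SD, n = 2 each). Over 205 X-linked genes with allele reads, the median mus share of a library was between 0% and 1.57%. The typical X-linked gene was thus read almost only from the cas X in every group, WT included. The intervals cover counting error only.

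Most of the change in allele reads was in cas, which held nearly all of them. As CPM, over the same TMM-scaled library sizes as the exon counts, cas of Col4a6 came to 15.1 and 13.0 in line 1, 30.5 and 33.6 in line 2, and 68.6 and 70.7 in WT. Line 1 held 20.2% of the WT cas level and line 2 46.1%, which set Col4a6 2nd and 3rd from the lowest of the 205 genes. Col4a5 had 25.7 and 16.7 cas reads on the same scale in line 1, 52.6 and 48.7 in line 2, and 51.9 and 51.9 in WT. The mus reads of Col4a6 were also fewer, with means of 0.543 in line 1, 0.701 in line 2 and 2.49 in WT on that scale. The Col4a5 cas level was 40.8% of WT in line 1, 4th from the lowest, and 97.5% in line 2, 96th. The median gene was at 102% in line 1 and 99.0% in line 2. Only 5 of the 205 genes were under 50% of the WT cas level in line 1 and 3 in line 2. The authors' deposited table classed both genes Monoallelic in all 4 comparisons of a deleted library with WT, as it did 186 of the 205 genes, with 19 Biallelic.

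**Figure D3:**
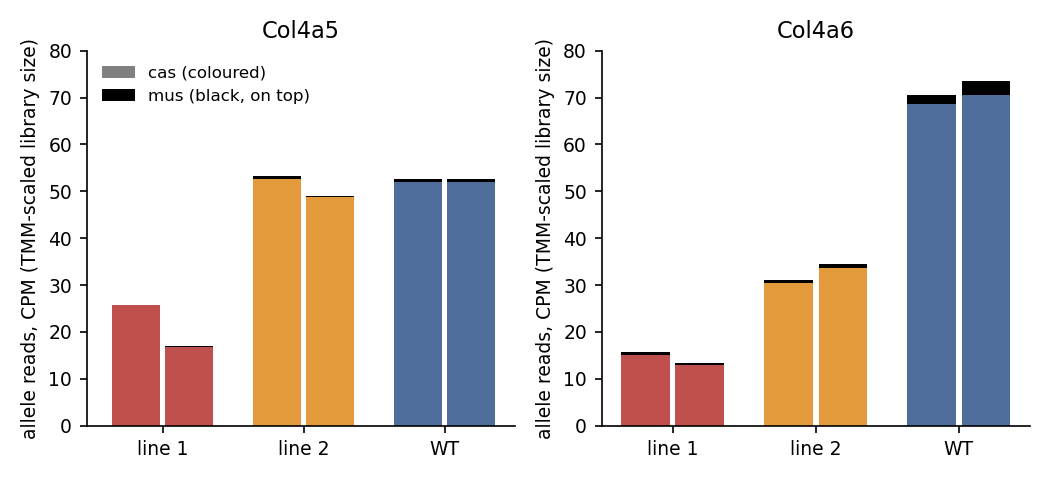
Allele reads of Col4a5 (left) and Col4a6 (right) as CPM (over TMM-scaled library sizes) in each library, with replicate 1 the left bar of a pair. Coloured bars are cas and the black tips mus; the cas bar of Col4a6 is 13.0 to 15.1 in line 1, 30.5 to 33.6 in line 2 and 68.6 to 70.7 in WT, and the mus tip stays under 3 throughout.

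Both genes held several sites that the authors classed XiRestored for BRG1. The lists are tied by the labels to WT and line 1, and hold coordinates with no score. Of 189 XiRestored BRG1 sites on the X, 11 (5.82%) lay inside the pair, 7 in Col4a6 and 4 in Col4a5. Their median width was 1331 bases, against 843 bases for the whole class. By number of such sites, Col4a6 ranked 3rd of 1058 X-linked genes, level with 1 other gene, and Col4a5 5th, level with 2 others, and 31 genes had any. The genes are long, 21st and 38th by span, and the numbers come to 2.27 sites per 100 kb in Col4a6 and 1.87 in Col4a5.

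The sites stood inside the genes and away from the shared promoter region. The nearest XiRestored BRG1 site began 11.1 kb from the Col4a5 start, and the 4 sites of Col4a5 lay 11.6, 26.4, 57.5 and 59.1 kb into the gene. Col4a6 had a cluster of 4 sites at chrX:141437699-141449370 (mm10), 25.7 to 35.5 kb into the gene, which covered 9917 bases of an 11.7 kb stretch. Its widest site, 3792 bases at chrX:141442241-141446032, was the 4th widest of the 189. The other 3 sites of Col4a6 lay 71.1, 110.0 and 111.1 kb in. Whether these positions are exonic or intronic was not determined here.

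Other classes were sparse in the pair. Of 887 Monoallelic BRG1 sites 1 lay in Col4a6, 275.6 kb into the gene, and of 60 Biallelic ones none lay in either gene. For accessibility, 1 of 37 XiRestored sites was in Col4a6, 180.9 kb in, 1 of 356 Monoallelic sites was in Col4a6, 274.9 kb in, and none of 27 Biallelic sites was in the pair. The 2 Monoallelic sites of Col4a6 were thus neighbours near its far end. The XiRestored accessibility site did not overlap any XiRestored BRG1 site of the gene. Among allele-resolved genes, 11 others carried an XiRestored BRG1 site, and their median mus share was 4.97% in line 1, 4.98% in line 2 and 2.59% in WT. The 192 genes without such a site had medians of 1.07%, 1.2% and 1.15% in the same groups. The authors classed 10 of the 11 and 174 of the 192 Monoallelic in all 4 comparisons. The mean mus share of both genes of the pair was below the medians of the 11 in line 1 and line 2. In WT Col4a6, at 3.44%, was above the median of the 11 and Col4a5, at 1.40%, below.

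**Figure D4:**
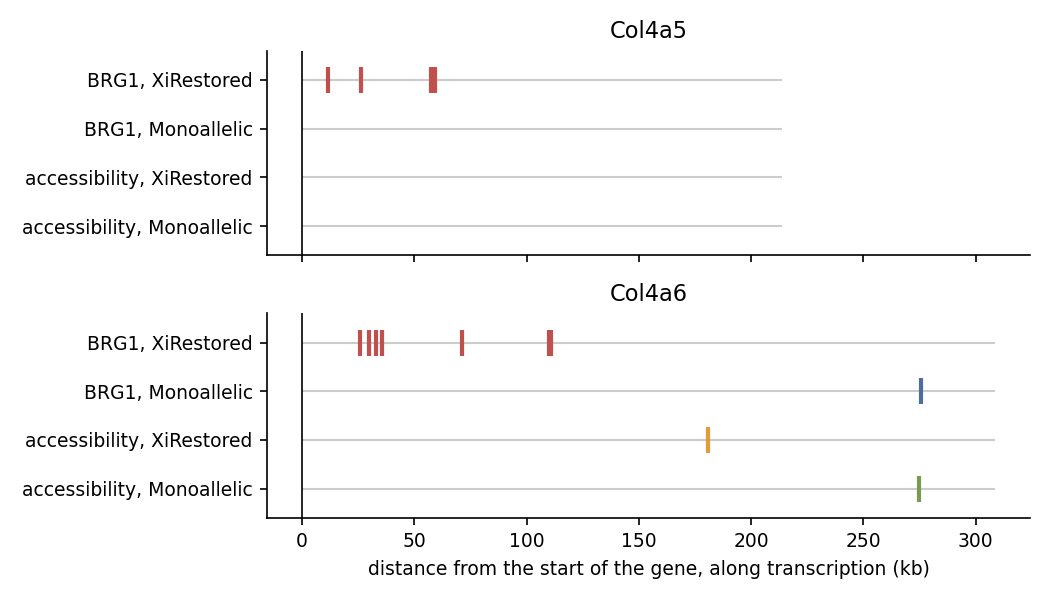
Classified sites inside Col4a5 (top) and Col4a6 (bottom), by distance in kb from the start of each gene along its direction of transcription. Ticks mark site centres, grey lines the length of the gene (213.8 and 308.7 kb). The red XiRestored BRG1 ticks lie between 11.6 and 111.1 kb, with 4 close together at 25.7 to 35.5 kb in Col4a6, and no tick lies at either start.

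Of 14 genes within 1 Mb of the pair, 7 were tested, and 2 fell and none rose in line 1 (5 called under the replicate block). In that line 6.75% of all genes were called higher and 7.55% lower. Mid2, a RING-type ubiquitin ligase bound to microtubules, had 12.4 and 19.8 CPM in line 1, 34.5 and 46.6 CPM in line 2, and 37.8 and 51.1 CPM in WT. It fell in line 1 (log2 fold change -1.44, SE 0.30, edgeR adjusted p = 0.0254) but not in line 2 (-0.13, edgeR adjusted p = 0.934), and line 2 minus line 1 was 1.31 (SE 0.30, edgeR adjusted p = 0.0364). The Mid2 cas level was 44.5% of WT in line 1 and 98.2% in line 2. Tmem164, a membrane protein gene, fell in line 1 to 139.2 and 138.6 CPM, against 192.9 and 189.1 CPM in WT (log2 fold change -0.46, SE 0.10, edgeR adjusted p = 0.0300). Without either WT library, neither Mid2 (adjusted p = 0.0568 and 0.157) nor Tmem164 (0.2 and 0.199) passed edgeR's test in line 1.

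The nearest tested genes on either side did not fall with the pair. Psmd10, a proteasome assembly factor and the nearest tested gene on the side of Col4a6, had 27.2 and 34.7 CPM in line 1, 21.0 and 23.3 CPM in line 2, and 18.4 and 23.4 CPM in WT (log2 fold change 0.57, edgeR adjusted p = 0.147, in line 1). Nxt2, an mRNA export factor and the nearest tested gene on the side of Col4a5, beyond the untested Irs4 and Gucy2f, had a log2 fold change of 0.51 (edgeR adjusted p = 0.473) in line 1. Acsl4, an acyl-CoA synthetase for arachidonate, had 0.38 (adjusted p = 0.0830). These 3 passed as higher under the replicate block (adjusted p = 0.0203, 0.0386 and 0.00956). Prps1 (-0.18, adjusted p = 0.795) and Tsc22d3 (-0.03, adjusted p = 0.965) were close to WT in line 1. In line 2, where edgeR called 3.58% of all genes, none of the 7 was called by edgeR or DESeq2. None had an unadjusted p under 0.05, and all 7 log2 fold changes lay between -0.16 and 0.29. Line 2 minus line 1 called 3, Mid2 and Tmem164 higher and Acsl4 lower (-0.52, SE 0.12, edgeR adjusted p = 0.0340), where 12.6% of all genes were called. Without either line 2 library none of the 3 was called (edgeR adjusted p = 0.0776 and 0.227 for Mid2, 0.149 and 0.17 for Tmem164, 0.254 and 0.192 for Acsl4). Mid2 was also lost without the first line 1 library (0.0589) and Acsl4 without the second (0.0601).

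**Figure D5:**
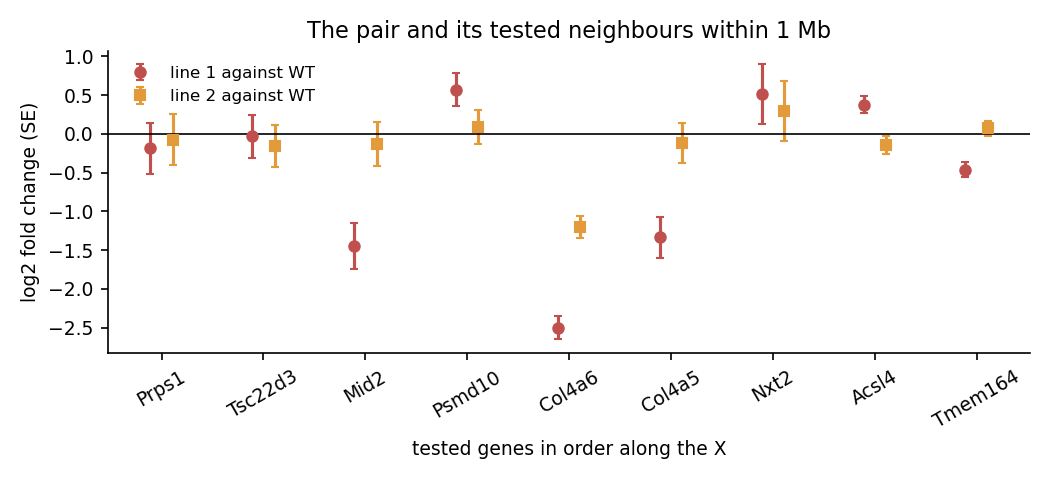
Log2 fold change against WT in line 1 (circles) and line 2 (squares) for Col4a5, Col4a6 and the 7 tested genes within 1 Mb, in their order along the X; bars are SE. In line 2 Col4a6 stands at -1.20 while its neighbours lie between -0.16 and 0.29.

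Of 21 tested basement membrane partners of the type IV network, 3 rose and 5 fell in line 1 (14 called under the replicate block), where 6.75% of all genes were called higher and 7.55% lower. Among the same genes 1 rose and 2 fell in line 2, where 1.73% of all genes were called higher and 1.85% lower. In line 2 minus line 1, where 6.87% of all genes were called higher and 5.76% lower, 5 partners were higher and 2 lower. Their median log2 fold change was -0.25 in line 1 and -0.004 in line 2, and all genes had 0.005 in each. Nid2, a nidogen that links laminin to type IV collagen, had 12.6 and 2.53 CPM in line 1, 206.1 and 198.2 CPM in line 2, and 209.2 and 173.0 CPM in WT (line 1 log2 fold change -4.85, SE 0.55, edgeR adjusted p = 0.00324). Lama5, a laminin alpha chain, had 6.62 and 2.73 CPM in line 1, 57.3 and 40.8 CPM in line 2, and 40.9 and 28.1 CPM in WT (line 1 -2.96, SE 0.45, edgeR adjusted p = 0.00899). Npnt, which encodes the integrin ligand nephronectin, fell in line 1 (-3.27, SE 0.44, edgeR adjusted p = 0.00629). Nid2, Lama5 and Npnt were not called in line 2 (log2 fold change 0.08, 0.51 and 0.82; edgeR adjusted p = 0.983, 0.665 and 0.359).

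Smoc2 followed the order of Col4a6. This secreted calcium-binding matrix protein had 0.5 counts in all over both line 1 libraries, 5.45 and 4.86 CPM in line 2, and 38.7 and 66.2 CPM in WT. Its ratio to WT in line 1 was -10.26 on the log2 scale (95% counting interval -20.25 to -7.03), and in line 2 its log2 fold change was -3.33 (SE 0.39, edgeR adjusted p = 0.0132). Fras1, a Fraser complex protein of the basement membrane, fell in line 2 (-2.47, SE 0.41, edgeR adjusted p = 0.0354) and Col18a1, the source of endostatin, rose (2.78, SE 0.50, edgeR adjusted p = 0.0426). The line 2 calls of Fras1 and Col18a1 were lost whichever of the 4 libraries compared was left out, and that of Smoc2 without either line 2 library or the second WT library, with adjusted p up to 0.228.

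Among 25 tested genes for chain assembly and crosslinking, none rose and 4 fell in line 1 (11 called under the replicate block). In that line 6.75% of all genes were called higher and 7.55% lower. P4ha3, a prolyl 4-hydroxylase subunit, had 23.1 and 11.4 CPM in line 1, 98.7 and 88.3 CPM in line 2, and 142.5 and 150.0 CPM in WT. It fell in line 1 (log2 fold change -3.13, SE 0.31, edgeR adjusted p = 0.00208) and had -0.65 (edgeR adjusted p = 0.352) in line 2. P3h2, a prolyl 3-hydroxylase that acts on type IV collagen, fell in line 1 (-2.38, SE 0.26, edgeR adjusted p = 0.00279), as did the lysyl oxidase Loxl4 (-0.85, edgeR adjusted p = 0.0102) and the lysyl hydroxylase Plod2 (-0.77, edgeR adjusted p = 0.0425). The Plod2 call was lost without either WT library (adjusted p = 0.141 and 0.224) and that of Loxl4 without the second (0.091). In line 2, where edgeR called 3.58% of all genes, it called none of the 25. DESeq2 called 1, the replicate block called 4, and 4 had an unadjusted p under 0.05. Line 2 minus line 1 called 5, all higher (13 under the replicate block), where 6.87% of all genes were called higher. P4ha3 was at 2.49 and Loxl3, another lysyl oxidase, at 0.72. The median log2 fold change was -0.20 in line 1, 0.06 in line 2 and 0.32 in line 2 minus line 1.

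Of 11 tested receptors, 1 rose and 3 fell in line 1 (8 called under the replicate block). In that line 6.75% of all genes were called higher and 7.55% lower. Itga1, the integrin chain of a type IV collagen receptor, had 11.0 and 8.46 CPM in line 1, 57.8 and 69.2 CPM in line 2, and 46.1 and 53.9 CPM in WT (line 1 log2 fold change -2.38, SE 0.21, edgeR adjusted p = 0.00158). The laminin receptor chains moved apart: Itga7 fell (-3.18, SE 0.30, edgeR adjusted p = 0.00174) and Itga6 rose (1.63, SE 0.27, edgeR adjusted p = 0.0126). Bcam, a laminin receptor, fell (-3.22, edgeR adjusted p = 0.0272). The Bcam call was lost without the second line 1 library (adjusted p = 0.122) or the first WT library (0.0888), and that of Itga6 without the first WT library (0.0794). In line 2, where edgeR called 3.58% of all genes, none of the 11 was called by edgeR or DESeq2. Of the 11, 1 had an unadjusted p under 0.05 and the replicate block called 1. The collagen receptor chain Itga2 had 0.363 and 0.494 CPM in line 2 and 3.51 and 13.2 CPM in line 1 (line 2 minus line 1 -3.99, SE 0.79, edgeR adjusted p = 0.0244), a difference not called without either line 2 library (adjusted p = 0.124 and 0.167). The median over the 11 was -0.14 in line 1 and -0.16 in line 2.

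Of 13 tested proteases and inhibitors that act on basement membranes, 5 rose and 2 fell in line 1, where 6.75% of all genes were called higher and 7.55% lower. Timp3, a matrix-bound inhibitor of metalloproteinases, had 3.24 and 2.18 CPM in line 1, 467.2 and 425.3 CPM in line 2, and 594.8 and 457.2 CPM in WT (line 1 log2 fold change -7.66, SE 0.26, edgeR adjusted p = 0.000137). Mmp3, a stromelysin, had 49.7 and 140.8 CPM in line 1, 0 counts in line 2, and 0.632 and 0.880 CPM in WT (line 1 6.74, SE 0.75, edgeR adjusted p = 0.00541). Mmp15, a membrane-bound metalloproteinase, fell (-3.27, SE 0.31, edgeR adjusted p = 0.00197) and the urokinase Plau rose (1.65, SE 0.23, edgeR adjusted p = 0.00644). In line 2, where edgeR called 3.58% of all genes, it called none of the 13. DESeq2 called 2, 4 had an unadjusted p under 0.05 and the replicate block called 5. The median log2 fold change was 0.11 in line 1 and 0.01 in line 2.

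Of the 12910 genes tested, 415 were X-linked. The genes whose profile over the 6 libraries came closest to each member were on other chromosomes. Closeness was the root mean square difference of log2 CPM centred on the mean of the gene. For Col4a5 they were Ttc28 (0.117), Aff3 (0.118), Dtd1 (0.122), Id3 (0.128) and Akap12 (0.128), and for Col4a6 they were Zfp764 (0.098), Zdhhc2 (0.112), Tubb3 (0.124), Tmem121 (0.158) and A330033J07Rik (0.158). Akap12, for example, had 294.0 CPM in line 1, 662.2 CPM in line 2 and 729.1 CPM in WT, and Zdhhc2 had 9.81, 24.2 and 48.6 CPM in the same groups. The difference between the 2 members was 0.548. Ranked by closeness over the 12910 genes tested, Col4a5 was 240th from Col4a6, and Col4a6 was 1466th from Col4a5.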

How the data were processed

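The members and gene lists were chosen with earlier results of these data known. The authors deposited expected counts over exons of RefSeq transcripts, unnormalized HOMER output in steps of 0.5 per the file headers, on mm10. They were rounded (the design had assumed whole counts), with 1 transcript, the highest in total, kept for each of 24470 symbols. edgeR 4.0.16 (R 4.3.3) fitted all 6 libraries with filterByExpr, TMM scaling, quasi-likelihood tests and Benjamini-Hochberg adjustment at 0.05. The fit has 3 residual degrees of freedom. It was also run on simulated counts with 1 spread for all genes, changes in line 1 only and no replicate effect. That run does not show how the fit performs on these libraries. Allele values are expected counts as deposited; 0.5 was read as 0. Deposited site positions counted from 0 are given from 1.

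CPM uses TMM-scaled sizes. SE is the log2 fold change over the square root of F. A group total of 0 was set to a floor of 3 counts, and totals up to 3 got a counting interval. Same-numbered libraries deviated together across genes (Pearson 0.53, 0.54 and 0.59), and the first of each group is the shallower. Replicate number was therefore also fitted as a replicate block. The 2 replicates are biological, per the labels.

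Named genes were the other type IV chains, tested genes within 1 Mb, up to 4 of each other list per comparison by smallest adjusted p, and the 5 genes closest to each member. Exceptions are markers, given as lists. The submitters' processing notes list TopHat2, Novoalign 3.00.02, Bowtie2 2.2.7, MACS2, bedtools 2.25.0, SAMtools 0.1.18 and Trim Galore 0.4.1 with no roles. The rule behind the classes was not given in the sources used here. Alternatives included DESeq2 1.42.0.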

Additional observations from a re-analysis of the deposited data

Results flagged for a closer look

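Line 1 and line 2 were set directly against each other in the same edgeR fit, and the named neighbours and pathway genes whose adjusted p was under 0.05 are given here as log2 fold changes of line 2 minus line 1. Among the neighbours of the pair these were Mid2 (1.31), Tmem164 (0.53) and Acsl4 (-0.52).

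Basement membrane partners that differed were Nid2 (4.93), Npnt (4.09), Lama5 (3.47) and the Fraser-related Frem1 (-3.09), together with Smoc2, whose ratio was 6.81 with 0.5 counts in line 1. Chain modifiers were P4ha3 (2.49), P3h2 (1.66), Loxl4 (0.91) and Loxl3 (0.72). Receptors were Itga7 (3.64), Itga1 (2.73), Itga6 (-2.15) and Itga2 (-3.99). Proteases and inhibitors were Timp3 (7.43) and Mmp15 (2.27).

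Mmp3 and Mmp10, both stromelysins, had 0 counts in line 2. With the 0 of line 2 set to 3 counts over both libraries, Mmp3 was at least 412-fold lower in line 2 than in line 1 (a log2 bound of -8.69) and Mmp10 at least 50.9-fold lower (-5.67).

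Several of these calls were lost when 1 library was left out. Without either line 2 library, edgeR's adjusted p was 0.0776 and 0.227 for Mid2, 0.149 and 0.17 for Tmem164, 0.254 and 0.192 for Acsl4, 0.0627 and 0.0735 for P3h2, 0.169 and 0.14 for Loxl3, 0.124 and 0.167 for Itga2, 0.0509 and 0.0686 for Mmp15, and 0.0689 and 0.109 for Mmp10. Without the second line 2 library it was 0.0879 for Frem1 and 0.0821 for Loxl4. Mid2 was also lost without the first line 1 library (0.0589) and Acsl4 without the second (0.0601).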

How the results depend on the processing

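The log2 fold changes of Col4a5 and Col4a6 kept their sign under every alternative run. Leaving out 1 library moved Col4a5 in line 1 over -1.81 to -0.96 and in line 2 minus line 1 over 0.85 to 1.70, and Col4a6 over -2.65 to -2.36 in line 1 and -1.30 to -1.12 in line 2. Stability of the mus shares and the Col4a6 over Col4a5 ratio could not be judged by leaving out 1 library. With 2 libraries per group, that run returns the other library's value, never more than 1 SD from the mean. Averaging over transcripts could not change the ratio either, as each member is counted as 1 transcript. Keeping the mus values otherwise read as 0 moved the mean Col4a5 share in line 1 from 0.605% to 0.867%. The other mean shares of the pair stayed the same. The Col4a5 mus share in line 1 rests on few reads, with 0.605% over both libraries, 1.21% without the first and 0% without the second. The 11 XiRestored BRG1 sites stayed 11.

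Counts of called genes depended on the fit, in the order line 1, line 2 and line 2 minus line 1 where 3 values are given. Of 1846, 462 and 1630 genes called, the replicate block gave 4183, 1565 and 3506, and leaving out 1 library 718 to 2365, 23 to 52 and 601 to 1993. In line 2 no filter gave 948 and the 2 groups alone 792.

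For the lists, the replicate block gave 2 and 2 other chains (lines 1 and 2), 14 and 6 partners, 11, 4 and 13 assembly genes, 8 and 1 receptors, 5 proteases in line 2 and 9 in line 2 minus line 1, and 5 neighbours in line 1. No filter gave 2 and 1 chains, 5 partners in line 2, 7, 2 and 9 assembly genes, and 3 and 8 proteases (line 2, line 2 minus line 1). The 2 groups alone gave 0 chains and 1 neighbour in line 1, 5 partners, 3 assembly genes, 1 receptor and 1 protease in line 2, and 3 assembly genes and 0 neighbours in line 2 minus line 1. DESeq2 gave 0 chains in line 1, 5 partners, 1 assembly gene and 2 proteases in line 2, and 9 assembly genes in line 2 minus line 1. Unrounded values gave 2 chains in line 1, and a 2 Mb window 1 neighbour in line 2.

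Leaving out 1 library gave 0 to 3 chains (line 1) and 0 to 2 (line 2 minus line 1), 5 to 9, 0 to 1 and 4 to 8 partners, 2 to 8 assembly genes (line 1) and 1 to 9 (line 2 minus line 1), 2 to 7 receptors in line 1, 2 to 6 proteases in line 2 minus line 1, and 0 to 3 and 0 to 2 neighbours (line 1, line 2 minus line 1). RLE scaling and summed transcripts changed no call of a named gene, and the replicate block added 7 and lost none. The 2 groups alone lost 8 calls among 68 pairs of gene and comparison, and DESeq2 lost 1 among 71. Neither added any. No filter added 2 and unrounded values added 1. The causes were not tested. With 2 libraries per group and at most 18.5 mus reads per gene and library, small allele changes could not be seen.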
